A study of Homo sapiens with 6 samples.

Results

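Oxidative phosphorylation is the last stage of respiration, in which 4 complexes of the inner mitochondrial membrane pass electrons from NADH and succinate to oxygen. Complexes I, III and IV also pump protons, and complex V, the ATP synthase, uses the proton gradient to make ATP. Most subunits are encoded in the nucleus, a few by mitochondrial DNA, and separate assembly factors insert the haem, copper and flavin groups. Neurons depend heavily on this pathway, whereas cultured neuroblastoma cells also draw on glycolysis. The genes described here are those whose current symbol begins with NDUF (complex I), UQCR (complex III), ATP5 (complex V) or COX and a digit (complex IV), together with CYC1 of complex III and the SDHA to SDHD genes of complex II. On the array this rule took 111 spots of 76 genes, and UQCRC1, a core subunit of complex III, read at or under the stand-in for no signal on all 6 arrays. The remaining 75 genes, at 110 spots, were compared among 6213 named genes with signal. They comprise 31 genes of complex I, 2 of complex II (SDHA and SDHD), 7 of complex III, 10 of complex IV, 14 of complex V and 11 assembly factors, 4 of complex I (NDUFAF genes) and 7 of complex IV (COX10 and others).

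RNA came from SH-SY5Y, an established human neuroblastoma line, on day 7 after transfection, with selection in geneticin at 500 µg/ml. The 3 DN-TRF2 samples carried a pIRES2-EGFP vector with dominant-negative TRF2, a form that opposes the telomere-binding protein TRF2. The 3 GFP control samples carried a pEGF-C2 vector without insert, so that insert and backbone cannot be told apart. Samples were from 3 independent experiments, each on 1 array of 9600 cDNA spots.

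No spot used here carried the name of TRF2's own gene, so the labels were not checked against it. Of 17 sympathoadrenal markers 11 were measured, 9 of them above the median signal, which is a weak check since signal differs between spots for other reasons than RNA level. Of the markers of other cell types, 2 of 6 immune, 4 of 4 epithelial, 2 of 4 fibroblast and 0 of 2 endothelial genes were measured, and 1, 2 and 1 of the measured ones lay above the median signal. Their part in the results was not tested. All values below are normalized log2 signals compared within a spot or gene and never between genes. Arrays were few, and the median half-width of the 95% interval of a difference was 0.38 (log2) over the members. In bulk RNA, fewer cells of a type and less RNA per cell cannot be told apart. The cDNA clones may also hybridize with RNA of related genes, and the gene table lists 198 pseudogenes with names of these families.

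None of the 75 genes passed the test between DN-TRF2 and GFP control cells. Mean signal was higher in DN-TRF2 cells for 32 genes (42.7%, against 47.9% of all genes) and lower for 43, with a median difference of -0.026 (log2), beside -0.0069 over all genes. Limma's adjusted p was 1.00 for every member, and 0 of all genes passed (0% called). At an unadjusted p under 0.05 there were 0 members, against 219 of all genes (3.52%), 2.46% higher and 1.06% lower. With the replicate number as a block, 2 members and 332 genes had an unadjusted p under 0.05, and again 0 passed. The groups did not overlap for 8 members (10.7%), near the 9% of all genes. Higher in DN-TRF2 cells without overlap were UQCRB, COX10 and COX15 (3 of 75, against 4.75% of all genes), and lower were NDUFA10, NDUFB10, SDHD, CYC1 and COX11 (5 of 75, against 4.25%). By spot, 8 of 110 member spots did not overlap, against 8.72% of all spots.

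**Figure D1:**
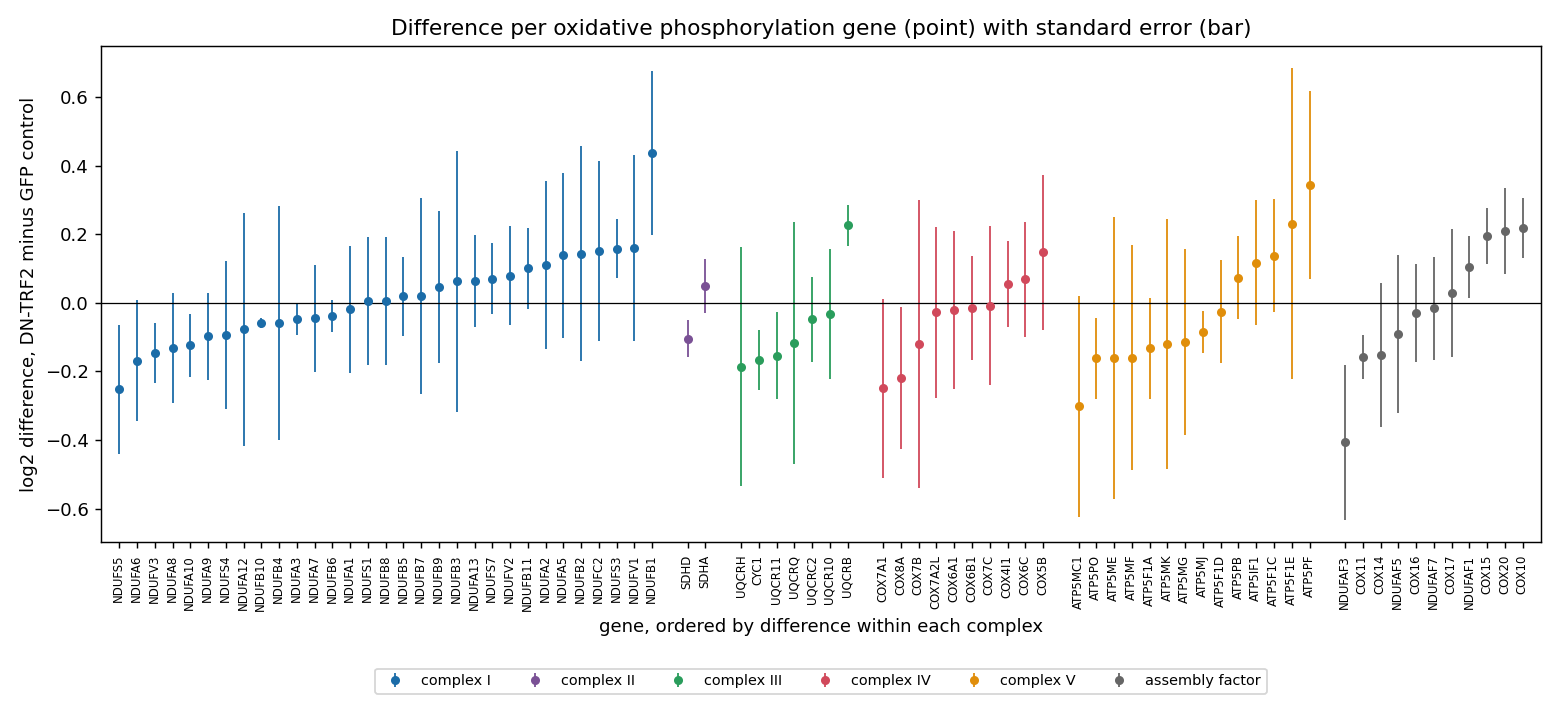
Difference between DN-TRF2 and GFP control cells (log2, vertical axis) for each of the 75 genes, ordered within its complex, with standard errors as bars. Values ran from -0.41 (NDUFAF3) to 0.44 (NDUFB1), and 0 genes passed limma's adjusted test.

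COX10, the farnesyltransferase that makes haem O on the way to the haem A of cytochrome c oxidase, gave different answers at its 2 spots. At the brighter spot the signal was 11.64, 11.60 and 11.84 in DN-TRF2 samples 1 to 3, against 11.22, 11.04 and 11.14 in GFP controls 1 to 3. All 3 DN-TRF2 values lay above all 3 control values there, by 0.56 ± 0.091 (SE). In the limma fit by spot its unadjusted p was 0.0031, and 0 of 9095 spots passed the adjusted test. The dimmer spot read 10.25, 10.17 and 10.48 in DN-TRF2 samples and 10.42, 10.43 and 10.43 in controls. Here the groups overlapped, and the difference was -0.13 ± 0.091. Averaged over both spots COX10 differed by 0.22 ± 0.087, with an interval of -0.074 to 0.51 and a limma adjusted p of 1.00.

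The RefSeq promoter of COX10 is printed here with those of 3 subunit genes that shared the array pattern described further on, because the nuclear respiratory factors NRF1 and GABP (an ETS factor) and the factor YY1 are known to act at promoters of this pathway. Each is 300 bases, from 250 before to 50 after the gene's start, 5′ to 3′ on the gene's strand (build GRCh38.p14). COX10 lies at chr17:14069254-14069553 (+), COX5B, a nuclear subunit of complex IV, at chr2:97645812-97646111 (+), ATP5ME, subunit e of the ATP synthase, at chr4:674227-674526 (-), and ATP5MK, a small membrane subunit of the synthase, at chr10:103396426-103396725 (-). Capitals mark matches on either strand to GCGCA followed by any base and GCGC (NRF1), CCGGAAG (ETS) or AAGATGGC (YY1).
COX10: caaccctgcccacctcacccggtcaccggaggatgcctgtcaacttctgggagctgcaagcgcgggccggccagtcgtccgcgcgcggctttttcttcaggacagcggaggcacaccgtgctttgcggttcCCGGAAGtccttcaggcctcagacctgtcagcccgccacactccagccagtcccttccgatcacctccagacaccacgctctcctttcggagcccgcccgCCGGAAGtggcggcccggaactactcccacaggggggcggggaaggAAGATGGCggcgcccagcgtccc
COX5B: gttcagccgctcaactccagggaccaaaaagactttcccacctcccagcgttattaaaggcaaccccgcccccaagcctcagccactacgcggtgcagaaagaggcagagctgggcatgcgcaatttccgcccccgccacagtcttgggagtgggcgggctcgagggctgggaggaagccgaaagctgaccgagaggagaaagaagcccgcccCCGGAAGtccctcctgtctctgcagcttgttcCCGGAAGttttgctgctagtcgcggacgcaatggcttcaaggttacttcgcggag
ATP5ME: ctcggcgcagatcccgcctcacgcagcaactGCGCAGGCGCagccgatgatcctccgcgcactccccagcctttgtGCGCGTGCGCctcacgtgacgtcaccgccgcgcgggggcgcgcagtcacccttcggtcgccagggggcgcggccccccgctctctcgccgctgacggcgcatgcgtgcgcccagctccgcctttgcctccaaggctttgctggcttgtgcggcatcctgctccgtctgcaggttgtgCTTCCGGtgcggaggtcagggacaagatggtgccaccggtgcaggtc
ATP5MK: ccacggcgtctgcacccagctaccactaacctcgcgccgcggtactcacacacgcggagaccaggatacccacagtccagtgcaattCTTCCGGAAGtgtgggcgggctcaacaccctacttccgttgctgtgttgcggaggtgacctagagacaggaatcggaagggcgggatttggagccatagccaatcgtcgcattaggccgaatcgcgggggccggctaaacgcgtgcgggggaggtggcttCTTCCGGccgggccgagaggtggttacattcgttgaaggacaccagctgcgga
COX10 holds 2 ETS matches and 1 YY1 match, COX5B 2 ETS matches, ATP5ME 2 NRF1 matches and 1 ETS match, and ATP5MK 3 ETS matches, 2 of which overlap on opposite strands. The 3 subunit genes are examples and do not stand for all members with the pattern. A match of any kind occurred in 17 of 27 promoters of such members and 20 of 37 of other members. COX7B and ATP5F1E, which also had the pattern, held no match. Of the 75 members 64 were in the promoter table. Those not in it were ATP5F1D, ATP5MF, COX11, COX6C, COX7A1, CYC1, NDUFB5, NDUFB9, NDUFC2, NDUFS5 and UQCRB. The NRF1 letters occurred in 15 of 64 promoters (23.4%), against 11.6% of promoters of genes measured on the array and 5.78% of all promoters of the table. For ETS the shares were 32.8%, 20.5% and 10.3%, and for YY1 15.6%, 5.91% and 2.89%. Among members with the array pattern ETS letters occurred in 12 of 27 promoters, NRF1 letters in 5 and YY1 letters in 2, and among other members in 9, 10 and 8 of 37. ETS letters were thus the more frequent in members with the pattern and the others in the remaining members, differences that were not tested. A match is a run of letters and not a measured binding site.

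The 11 assembly factors went both ways, with 5 higher and a median difference of -0.016, and without COX10 4 of 10 were higher (median -0.024). COX15, which converts haem O to haem A, read 11.14, 10.98 and 11.08 in DN-TRF2 cells against 10.75, 10.89 and 10.97 in controls. The groups were apart by a narrow margin, and the difference was 0.19 ± 0.081. COX11, which delivers copper to the catalytic core, differed by -0.16 ± 0.065 and also did not overlap. COX17, the copper chaperone of the intermembrane space, differed by 0.029 ± 0.19 and COX20, a chaperone of the COX2 protein, by 0.21 ± 0.13. COX14 and COX16, further assembly factors of complex IV, differed by -0.15 ± 0.21 and -0.031 ± 0.14. Among complex I assembly factors NDUFAF3 had the lowest difference of all members, -0.41 ± 0.23. It read 8.27, 8.07 and 7.66 in DN-TRF2 cells and 8.67, 8.25 and 8.29 in controls, and the groups overlapped because DN-TRF2 sample 1 lay just above control 2. With the replicate block limma's adjusted p for NDUFAF3 was 0.878 (unadjusted 0.0182). NDUFAF1, NDUFAF5 and NDUFAF7 differed by 0.10 ± 0.091, -0.091 ± 0.23 and -0.016 ± 0.15.

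Complex I, the NADH dehydrogenase, had 17 of 31 genes higher and a median difference of 0.0061. NDUFB1, an accessory subunit of the membrane arm, had the highest difference of all members. Its signal was 8.74, 9.11 and 9.01 in DN-TRF2 cells and 8.10, 8.63 and 8.81 in controls, so that only DN-TRF2 sample 1 fell within the control range. The difference was 0.44 ± 0.24, with an interval from -0.0059 to 0.88 and a limma adjusted p of 1.00 (0.874 with the replicate block, unadjusted p 0.0126). The 5 core subunits measured, NDUFS1, NDUFS3, NDUFS7, NDUFV1 and NDUFV2, belong to the arm that takes electrons from NADH, and all had small positive differences, from 0.0045 to 0.16, with 95% intervals that included 0. NDUFS3 had the smallest error of them (0.16 ± 0.086). Without any 1 of the GFP controls, 4 of these 5 genes were higher. The same count held without DN-TRF2 sample 1 or 2, and with median centring, cyclic loess, brightest spots alone, array weights or the position correction. Offsets of 10 and 100 left all 5 higher, as did leaving out DN-TRF2 sample 3. The replicate block cannot change a difference in this design. The 2 spots of NDUFV2 disagreed, at -0.074 ± 0.056 for the brighter and 0.23 ± 0.28 for the other. NDUFV1, which binds the flavin that accepts electrons from NADH, read 10.69, 10.78 and 10.81 in DN-TRF2 cells, between the control values of 10.58, 10.15 and 11.08. Its difference was 0.16 ± 0.27.

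Among the 26 accessory subunits of complex I 12 were higher and 14 lower. NDUFS5, an accessory subunit despite its name, read 9.62, 9.90 and 9.67 in DN-TRF2 cells and 9.83, 10.32 and 9.81 in controls. NDUFA6, an accessory subunit near the junction of the arms, read 8.60, 8.83 and 8.79 in DN-TRF2 cells and 8.77, 9.23 and 8.73 in controls. In both genes the highest value was that of control 2, and the differences were -0.25 ± 0.19 and -0.17 ± 0.18. NDUFA10 (-0.12 ± 0.091) and NDUFB10 (-0.059 ± 0.015) did not overlap between groups. Their 95% intervals were -0.42 to 0.17 and -0.32 to 0.20. Each of the 2 spots of NDUFB10 overlapped when taken alone (-0.076 ± 0.095 and -0.043 ± 0.077). Of the 11 NDUFA genes 3 were higher, and of the 11 NDUFB genes 8, a split by name that was noticed in these values and not tested. Without GFP control 2 the counts were 7 of 11 NDUFA genes and 8 of 11 NDUFB genes, and without GFP control 1 they were 1 and 3 of 11.

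Complex II, the succinate dehydrogenase that also serves the citric acid cycle, was represented by its flavoprotein SDHA and by SDHD, one of its membrane anchors. SDHA read 11.07, 10.90 and 11.04 in DN-TRF2 cells and 11.07, 10.89 and 10.91 in controls, a difference of 0.048 ± 0.078. SDHD read 7.58, 7.66 and 7.68 in DN-TRF2 cells against 7.70, 7.83 and 7.69 in controls over the mean of its 5 spots. The groups did not overlap, with DN-TRF2 sample 3 and control 3 close together, and the difference was -0.10 ± 0.055. Of its spots 3 were lower, by -0.26 ± 0.17, -0.21 ± 0.10 and -0.080 ± 0.16, and the others differed by 0.013 ± 0.13 and 0.020 ± 0.21.

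**Figure D2:**
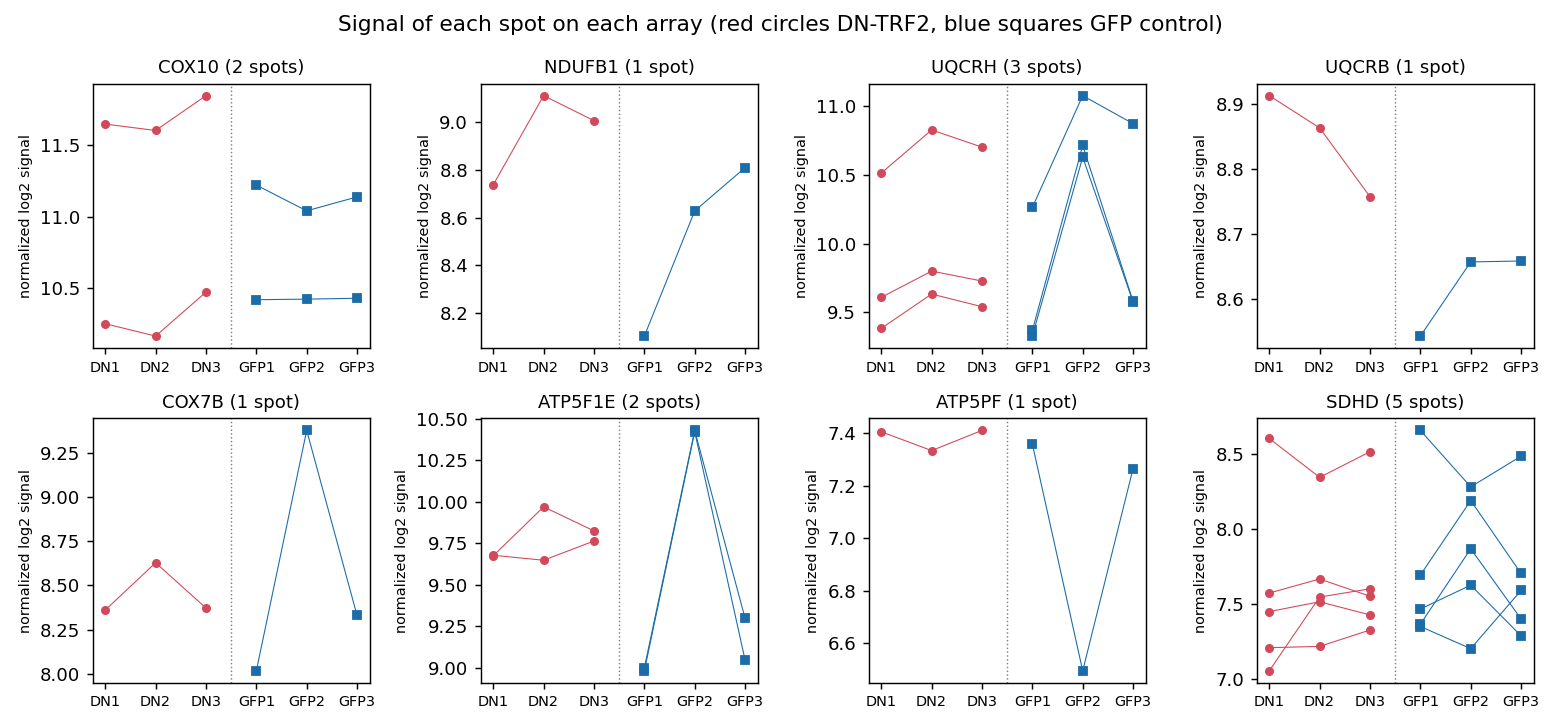
Normalized log2 signal (vertical axis) of every spot of 8 genes on the 3 DN-TRF2 arrays (red circles) and the 3 GFP control arrays (blue squares), with thin lines joining values of 1 spot within a group. The COX10 spots disagree, and UQCRH, COX7B and ATP5F1E peak on GFP control 2 and are lowest on GFP control 1.

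Complex III, which passes electrons from ubiquinol to cytochrome c, had 1 of 7 genes higher and a median difference of -0.12. UQCRB, a small subunit near the ubiquinone site, was the higher one, at 8.91, 8.86 and 8.76 in DN-TRF2 cells against 8.54, 8.66 and 8.66 in controls. All DN-TRF2 values lay above all controls, by 0.23 ± 0.060, with a limma unadjusted p of 0.0983. CYC1, which encodes cytochrome c1, read 9.50, 9.27 and 9.55 in DN-TRF2 cells and 9.57, 9.62 and 9.63 in controls. It was lower without overlap (-0.17 ± 0.087), and its 3 spots differed by -0.25 ± 0.084, -0.15 ± 0.18 and -0.11 ± 0.22, all in the same direction. UQCRH, the hinge protein that holds cytochrome c1, read 9.83, 10.09 and 9.99 in DN-TRF2 cells and 9.65, 10.81 and 10.01 in controls. The 3 DN-TRF2 values lay together, while the controls were spread more widely, and the difference was -0.19 ± 0.35. UQCR10, a small subunit, read 11.87, 11.80 and 11.67 in DN-TRF2 cells and 11.96, 12.03 and 11.45 in controls (-0.033 ± 0.19). UQCR11, UQCRQ and UQCRC2, further subunits with UQCRC2 a core protein, differed by -0.15 ± 0.13, -0.12 ± 0.35 and -0.047 ± 0.12.

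Complex IV, cytochrome c oxidase, had 3 of 10 subunit genes higher and a median difference of -0.018, and for 0 of them were the groups apart. COX5B read 8.78, 9.13 and 9.06 in DN-TRF2 cells and 8.54, 9.22 and 8.77 in controls (0.15 ± 0.22). COX6C, a small subunit, read 8.77, 8.98 and 8.95 in DN-TRF2 cells and 8.67, 9.14 and 8.69 in controls (0.068 ± 0.17). In both the control values enclosed those of DN-TRF2 cells. At the other end COX7A1, the isoform known from heart and skeletal muscle, read 9.71, 9.89 and 9.81 in DN-TRF2 cells and 9.74, 10.56 and 9.84 in controls (-0.25 ± 0.26). COX8A read 8.79, 8.48 and 8.40 in DN-TRF2 cells and 8.60, 9.12 and 8.61 in controls (-0.22 ± 0.21). Again 1 control value, that of control 2, stood above the rest. COX4I1, the largest nuclear subunit, differed by 0.055 ± 0.12, and COX6A1, COX6B1, COX7A2L, COX7B and COX7C by -0.12 to -0.0087, each within its error.

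Complex V had 5 of 14 genes higher, a median difference of -0.099 and 0 genes without overlap. ATP5PF, a subunit of the peripheral stalk, read 7.41, 7.33 and 7.41 in DN-TRF2 cells and 7.36, 6.49 and 7.27 in controls. Control 2 was far below the other arrays, and the difference was 0.34 ± 0.27. ATP5F1E, the epsilon subunit of the synthase, read 9.68, 9.81 and 9.79 in DN-TRF2 cells and 8.99, 10.43 and 9.17 in controls. Its DN-TRF2 values were tightly grouped between the control extremes, and the difference was 0.23 ± 0.45. ATP5MC1, one of the genes for the rotating c ring, had the lowest difference of the complex. It read 9.50, 8.94 and 9.63 in DN-TRF2 cells and 9.20, 10.03 and 9.75 in controls (-0.30 ± 0.32). ATP5PO, which joins the stalk to the head, read 8.29, 8.52 and 8.33 in DN-TRF2 cells and 8.37, 8.69 and 8.57 in controls (-0.16 ± 0.12).

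All 6 genes named ATP5M, which encode the membrane part of the synthase, were lower, from -0.30 to -0.085, with errors between 0.061 and 0.41. This rested on 1 array: without GFP control 2, 4 of the 6 were higher (ATP5ME by 0.24, ATP5MK by 0.21, ATP5MG by 0.14 and ATP5MF by 0.086), and the same 4 were higher with array weights. Of these ATP5MJ had the smallest error (-0.085 ± 0.061) and ATP5ME the largest (-0.16 ± 0.41). Genes with 3 spots could be checked within themselves. ATP5F1A, the catalytic head's alpha subunit, read 9.13, 9.35 and 9.45 in DN-TRF2 cells and 9.25, 9.64 and 9.44 in controls, and its 3 spots differed by -0.14 ± 0.063, -0.18 ± 0.15 and -0.070 ± 0.31. ATP5F1C, the gamma subunit of the rotating shaft, read 10.20, 10.43 and 10.39 in DN-TRF2 cells and 10.003, 10.49 and 10.11 in controls, while its spots ran from -0.13 ± 0.18 to 0.52 ± 0.30. ATP5F1A was therefore of 1 sign at every spot and ATP5F1C was not. ATP5IF1, which inhibits the enzyme when it runs backwards, read 9.36, 9.69 and 9.48 in DN-TRF2 cells and 9.15, 9.68 and 9.35 in controls, with spots from -0.12 ± 0.27 to 0.42 ± 0.29. ATP5PB, the stalk's b subunit, read 10.48, 10.49 and 10.62 in DN-TRF2 cells and 10.26, 10.65 and 10.46 in controls, with spots from -0.096 ± 0.23 to 0.16 ± 0.19. Over all complexes, spots shared a sign in 12 of the 26 members with more than 1 spot. Among members with exactly 2 spots this held in 9 of 19, beside 48.3% of the array's 1047 genes with 2 spots.

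Many members varied alike across the control arrays. Relative to all other genes, complex IV lay at -0.075, 0.070 and -0.057 on DN-TRF2 arrays 1 to 3, against -0.24, 0.42 and -0.11 on GFP control arrays 1 to 3. Complex V lay at -0.080, 0.0075 and 0.029 on DN-TRF2 arrays and at -0.20, 0.31 and -0.066 on control arrays. Control 2 was thus highest and control 1 lowest, with the DN-TRF2 arrays in between. Complex III lay at -0.0082, -0.053 and -0.045 on DN-TRF2 arrays and at -0.10, 0.25 and -0.042 on control arrays, and complex I at -0.041, 0.047 and 0.0091 on DN-TRF2 arrays and at -0.15, 0.14 and -0.0020 on control arrays. Complex II ranged from -0.062 to 0.051 and the assembly factors from -0.043 to 0.039 over the 6 arrays.

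**Figure D3:**
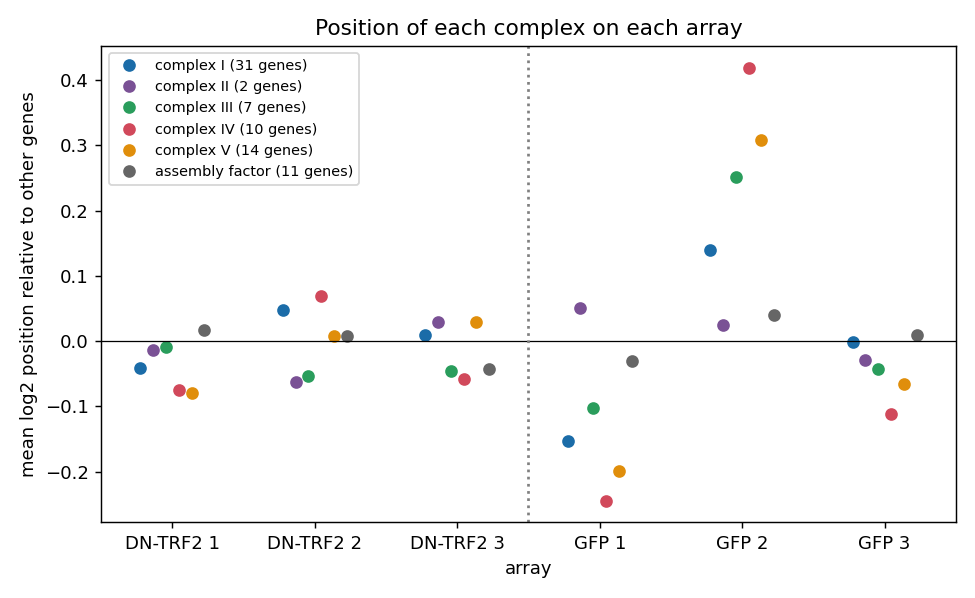
Mean position of each complex relative to all other genes (log2, vertical axis) on each array, DN-TRF2 at left. Complexes I, III, IV and V lie highest on GFP control 2 and lowest on GFP control 1, where complex IV reads 0.42 and -0.24.

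Gene by gene, 28 of 75 members (37.3%) were highest on GFP control 2 and lowest on GFP control 1 of the 6 arrays, against 11.6% of all genes. By complex this held for 6 of 10 genes of complex IV, 6 of 14 of complex V, 11 of 31 of complex I, 2 of 7 of complex III, 0 of 2 of complex II and 3 of 11 assembly factors. COX7B, a small subunit of complex IV, read 8.36, 8.63 and 8.37 in DN-TRF2 cells and 8.02, 9.37 and 8.33 in controls. ATP5ME read 8.60, 8.82 and 8.64 in DN-TRF2 cells and 8.38, 9.65 and 8.50 in controls. ATP5MK read 8.11, 8.50 and 8.23 in DN-TRF2 cells and 7.89, 9.06 and 8.26 in controls. In complex I the pattern occurred in 1 of 5 core subunits (NDUFV2) and 10 of 26 accessory subunits. In the second quartile of signal, which held 31 members, 51.6% of members and 13.1% of all genes showed it, and in the brightest quartile 19.0% of 21 members and 13.3% of all genes. Cytosolic ribosomal protein genes showed the pattern in 28 of 62 cases (45.2%). The pattern was noticed in these values, and its cause was not tested.

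**Figure D4:**
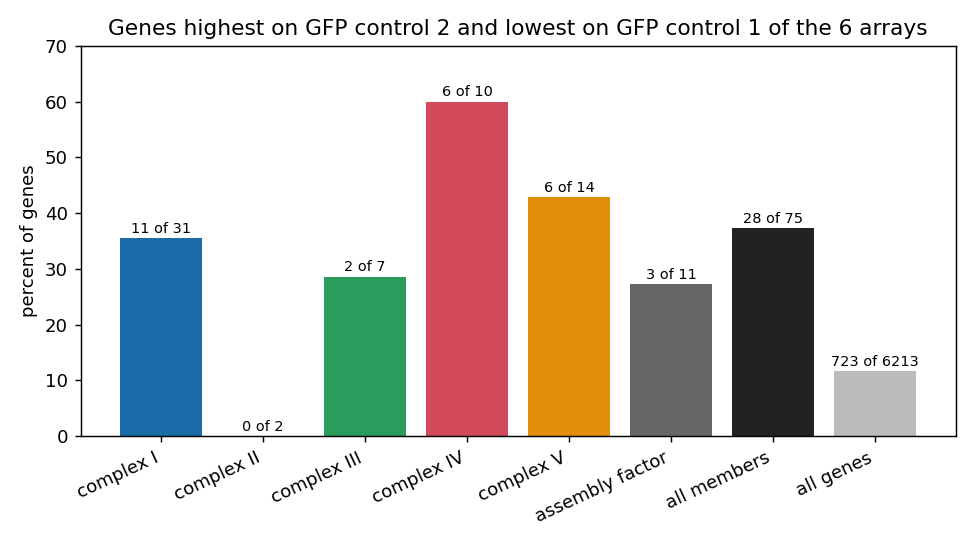
Percent of genes (vertical axis) whose highest signal of the 6 arrays was on GFP control 2 and lowest on GFP control 1, with counts above the bars. The share was 60.0% in complex IV and 11.6% over all genes.

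The median SD of a member was 0.12 in DN-TRF2 cells and 0.27 in GFP controls (n = 3 each), beside 0.12 and 0.22 over all genes. In complex IV it was 0.12 in DN-TRF2 cells and 0.35 in controls, and the control SD was the larger in 10 of 10 genes. For 42 members (56.0%) all DN-TRF2 values lay inside the control range, against 41.0% of all genes. Taken by replicate number, the median member difference was 0.085 at number 1, -0.18 at number 2 and 0.025 at number 3. For complex IV the 3 values were 0.15, -0.24 and 0.081, and its genes were higher in DN-TRF2 cells in 9 of 10 cases at number 1 and in 1 of 10 at number 2.

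Leaving out single arrays turned the direction of most complexes. Without GFP control 2 the median difference was 0.067 for complex I, 0.071 for complex III, 0.17 for complex IV, 0.11 for complex V and 0.11 for assembly factors, and 49 of 75 members were higher. Without GFP control 1 the medians were -0.055, -0.13, -0.16, -0.13 and -0.058 in the same order, and 20 of 75 were higher. The 2 genes of complex II gave -0.021 without control 2 and -0.0089 without control 1. Without control 2 ATP5F1E differed by 0.66 ± 0.086, the smallest p of any member in any fit (limma adjusted p = 0.298), and without control 1 by -0.038. In each of these fits 0 genes passed. With all arrays and under the 16 alternatives, 27 members kept 1 sign wherever they had a value, but 13 of them had none under at least 1 filter on dim spots. The other 14 were among the 37 members measured throughout. Of the 14, 6 were higher (ATP5F1C, COX10, COX15, NDUFAF1, NDUFS7 and SDHA) and 8 lower (ATP5F1A, ATP5MC1, COX14, CYC1, NDUFB10, NDUFB6, NDUFS5 and UQCR11). The replicate block, 1 of the 16 alternatives, cannot change a difference in this design. No alternative took a dimmer spot alone, and the spots of COX10 and of ATP5F1C disagreed in sign. The share of all genes that kept 1 sign was not computed.

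**Figure D5:**
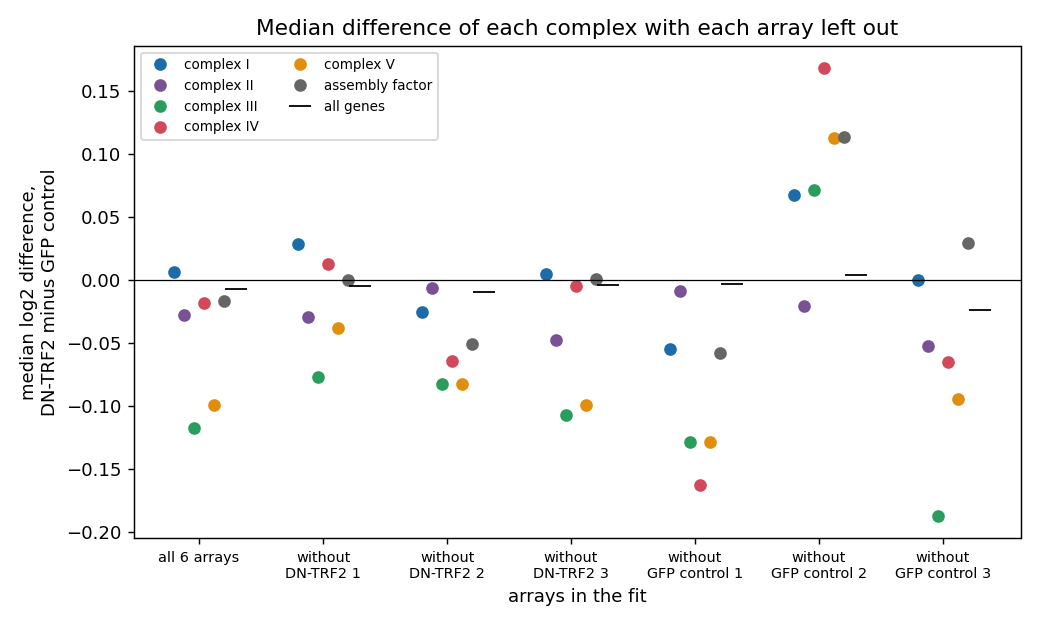
Median difference between DN-TRF2 and GFP control cells (log2, vertical axis) of each complex with all 6 arrays and with each array left out, with the median over all genes as a dash. Complex IV reads 0.17 without GFP control 2 and -0.16 without GFP control 1.

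Other genes of the pathway gave 0 calls as well. Their lists were electron carriers (mostly ubiquinone synthesis genes), membrane carriers with accessory genes, the citric acid cycle, further assembly factors and transcriptional regulators. Over these lists the groups did not overlap for MDH2, CS, PDHA1, UCP2, COQ8A, HIF1A and PPRC1, lower in DN-TRF2 cells, and for HIGD2A, higher. These were 1 of 12 genes of the electron carrier list, 1 of 6 of the membrane carrier list and 3 of 15 citric acid cycle genes. The rest were 1 of 21 further assembly factors and 2 of 8 regulators. Over all genes the share was 9%, and no list was tested. In the citric acid cycle and pyruvate dehydrogenase list 8 of 15 measured genes were higher and the median difference was 0.037. Its 3 genes without overlap (of 15, against 9% of all genes) were all lower: MDH2, malate dehydrogenase, by -0.47 ± 0.23, CS, citrate synthase, by -0.25 ± 0.091 and PDHA1, a subunit of pyruvate dehydrogenase, by -0.26 ± 0.12. MDH2 read 9.59, 9.80 and 9.61 in DN-TRF2 cells against 9.96, 10.57 and 9.88 in controls, again with control 2 the highest. Among further assembly factors 12 of 21 were higher (median 0.0055), with HIGD2A, a factor linked to supercomplexes, at 0.38 ± 0.15 and SCO1, a copper chaperone of complex IV, at 0.32 ± 0.23. The electron carrier list had 4 of 12 higher (median -0.026), with COQ9 (0.16 ± 0.14) and COQ4 (-0.13 ± 0.11), both of ubiquinone synthesis, at the smallest p. Carriers of nucleotides, phosphate and protons, with accessory genes, had 2 of 6 higher (median -0.11). The uncoupling protein gene UCP2 differed by -0.20 ± 0.082 and the adenine nucleotide translocase gene SLC25A4 by -0.20 ± 0.16. Regulators had 3 of 8 higher (median -0.13), with HIF1A, the hypoxia factor, at -0.28 ± 0.082 and PPRC1, a coactivator of mitochondrial biogenesis, at -0.29 ± 0.17. Limma's adjusted p was 1.00 for each of these genes.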

How the data were processed

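The authors deposited linear intensity values per spot in 1 table. Per the labels' protocols, each array took cDNA made radioactive from about 5 µg of total RNA. How images were read, background removed or arrays scaled is not stated by them. The value 10 recurs as a stand-in for no signal. The 384 blank positions (each 25th spot) and 121 further spots at or under 10 on all 6 arrays were left out, leaving 9095 spots. Medians ran from 489 to 726 per array, and up to 1.68% of spots on an array lay at or under the stand-in.

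Gene names came from the platform's annotation, brought up to date through gene IDs (8493 of 8517 matched, gene table GRCh38.p14). Of the spots kept, 8377 had 1 gene name, 21 several and 697 none listed here. Values plus 50 were put on the log2 scale, arrays were quantile-normalized and spots of one gene averaged. Limma 3.58.1 (R 4.3.3; lmFit and eBayes) tested all 6213 genes, two-sided, with Benjamini-Hochberg adjustment over all of them and a threshold of 0.05, and was tested on simulated data. Errors are standard errors of the unmoderated fit, intervals use limma's moderated variance, and differences are DN-TRF2 minus GFP control. The offset understates differences of dim spots.

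Same-numbered samples deviated together from their group means (correlations over genes 0.386, 0.286 and 0.239), so the replicate numbers were taken to pair them. This rests on the values, since the labels tie no number to an experiment. The main fit did not use the pairing, which entered as the replicate block among the alternatives. Members, lists and alternatives were chosen with earlier results of these data known. Array values are given for COX10, the extremes of each complex and genes with at least 3 spots; COX7B, ATP5ME, ATP5MK, COX15, NDUFAF3 and MDH2 were added, and PDHA1 and COQ8A named, after their values were seen. Grouping complex I by core and accessory subunits and complex V by gene name was done after seeing the values. Alternatives were offsets of 10 and 100, median centring, cyclic loess, 2 filters on dim spots, each gene's brightest spot alone, the replicate block, array weights, a correction for position on the array and leaving out each array.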

Additional observations from a re-analysis of the deposited data

How the results depend on the processing

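In all 16 alternatives 0 members and 0 genes passed limma's adjusted p. The smallest adjusted p over all genes ran from 0.234 (array weights) to 1.00. Members with an unadjusted limma p under 0.05 numbered 0 to 5, while the share of all genes ran from 1.66% to 8.1%. The count of 5, of 75 members, came without GFP control 2, where the share of all genes was 8.1%. Of 112 medians recomputed per complex, assembly factor group and over all members, 102 stayed within the spread between replicates. That spread includes GFP controls 1 and 2, so a median could change sign and still count as within it. With 1 array left out, medians ran from -0.055 to 0.067 for complex I, -0.053 to -0.0065 for complex II, -0.19 to 0.071 for complex III, -0.16 to 0.17 for complex IV, -0.13 to 0.11 for complex V, -0.058 to 0.11 for assembly factors and -0.10 to 0.097 over all members, with 20 to 49 members higher. The upper ends came without GFP control replicate 2, except in complex II. Only spots above the median signal gave 37 members, 16 of them higher, with medians of 0.048 for complex II and 0.15 for assembly factors, and 8 members with the pattern of the control arrays (21.6%, against 12.2% of all genes in that setting); fewer members were measured there, and the cause of the lower share was not tested. Without the quartile of dimmest spots the complex II median was 0.031. The assembly factor median was 0.021 with array weights and -0.073 after the position correction; the cause was not tested. With array weights 44 of 75 members were higher, and the median over all members was 0.033. The pattern of the control arrays, added after seeing the data, was found in 23 to 28 members of 70 or 75 under the other settings. The replicate block and array weights do not alter the normalized values, so their count of 28 was fixed in advance. The replicate block left every difference as it was and changed no call; it raised genes with an unadjusted p under 0.05 from 219 to 332. Of 707 single-gene differences recomputed with all arrays, 10 moved by more than the SD within groups, and COX10 came to 0.56 with its brighter spot alone. Spots near the stand-in, such as those of ATP5F1D and ATP5PF, limit what can be measured for dim genes.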

Other observations

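One clone of ATP5F1D, the delta subunit of the ATP synthase, was annotated at 2 spots whose deposited signals did not resemble each other. The first read intensities of 15.2, 29.2 and 54.3 on DN-TRF2 arrays 1 to 3 and 35.6, 10 and 86.8 on GFP control arrays 1 to 3. The second read 1945, 2148 and 2796 on DN-TRF2 arrays and 2264, 2207 and 2132 on control arrays. A clone of UQCR11 at 2 spots differed less, by -0.11 ± 0.11 and -0.20 ± 0.21 (log2, SE) between DN-TRF2 cells and controls. The genes most like COX10 over the 6 arrays by Pearson correlation, as a description of arrays that share groups and processing, were SPNS1 (0.97), PLK2 (0.95) and LHFPL3-AS1 (0.94). They are the highest values among all named genes, over few arrays. COX10 entered as the mean of its 2 spots, which disagreed.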
